A study of Sus scrofa with 6 samples.

Results

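The liver makes most of the soluble proteins of complement and of blood clotting, and 35 of their genes were followed here in newborn piglets. The genes were taken by name from a list, and 29 of the 35 could be found in the tables of 26733 genes through Ensembl names. FGA had no identifier in the symbol table, and the identifiers of C1R, C1S, F11, F12 and SERPINF2 do not occur in the tables, so these 6 were not analysed here. Of the 29, 28 reached 1 FPKM or more in at least 3 of the 6 libraries, as did 10901 of all genes. FPKM, fragments per kilobase of transcript and of sequencing output, is a level per unit of length. MASP2 fell short of that level and is given by its values only.

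Liver RNA came from newborn Landrace x Yorkshire piglets whose mothers had eaten tryptophan, an essential amino acid, on 1 of 2 daily schedules. Sows of the 2×Trp group ate feed with 0.26% tryptophan at both meals, and sows of the High-Low group 0.39% in the morning and 0.13% in the afternoon. There were 3 libraries per group. The labels do not say whether these came from separate piglets or litters, and give no sex, so the p-values rest on the spread of these libraries alone, which may be technical.

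Complement is a chain of plasma proteases that tags microbes. Its classical and lectin arms start with C1 or with mannose-binding lectin and its proteases, all arms meet at C3, and cleavage of C5 lets C6, C7, C8 and C9 build a pore. Clotting likewise runs through proteases that need vitamin K for their synthesis (F7, F9, F10, F2) to thrombin, which turns fibrinogen into fibrin. Antithrombin (SERPINC1), heparin cofactor II (SERPIND1), protein C and protein S hold clotting back, and plasminogen (PLG) gives the enzyme that dissolves the clot.

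Transcripts of the late clotting steps and of their brakes led the list. Prothrombin (F2), the precursor of thrombin on chromosome 2 at 17145002 to 17170975 of the susScr3 assembly, had 3145 ± 588 FPKM over the 6 libraries (SD, n = 6) and ranked 63rd among all 26733 genes. The fibrinogen beta chain (FGB) followed with 2309 ± 1126, antithrombin with 1892 ± 356, plasminogen with 1719 ± 190 and protein C (PROC) with 1685 ± 271. F10, the protease that cuts prothrombin, had 1306 ± 365 FPKM, complement factor B (CFB) 1298 ± 296, the C1 inhibitor SERPING1 1165 ± 254 and heparin cofactor II 1136 ± 150. These 9 genes, all at a mean of 1000 FPKM or more, held 82.5% of the summed level of the 29.

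Complement pore subunits and C3 lay mostly in the next class of 10 genes between 100 and 1000 FPKM. C8G had 677 ± 322 FPKM, C3 427 ± 60.8, C8B 306 ± 94.2, C8A 303 ± 56.1 and C9 161 ± 89.1 (SD, n = 6). The clotting genes of that class were the fibrinogen gamma chain FGG (433 ± 170), F7 (259 ± 64.2), kininogen KNG1 (201 ± 75.1) and F9 (150.3 ± 55.4), beside factor I (CFI), which inactivates C3b, at 142 ± 66.4. Protein S (PROS1), prekallikrein (KLKB1), F13B, C5, MASP1, F5 and C6 made up the 7 genes from 10 to 100 FPKM, from 57.9 ± 25.2 down to 16.1 ± 8.23. The 3 lowest were C4BPA, a binder of C4b, at 9.12 ± 3.77, the lectin MBL2 at 3.81 ± 4.67 and its protease MASP2 at 0.654 ± 0.198 FPKM. MASP1, MASP2 and MBL2, the lectin arm genes of the list that were measured, together summed to 23.4 to 33.3 FPKM per library. Outside the list, the lectin arm genes FCN2, COLEC11 and COLEC10 averaged 199, 87.9 and 1.02 FPKM. The 4 vitamin K dependent proteases that promote clotting (F2, F7, F9 and F10) summed to 3485 to 5911 FPKM, protein C not included.

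**Figure D1:**
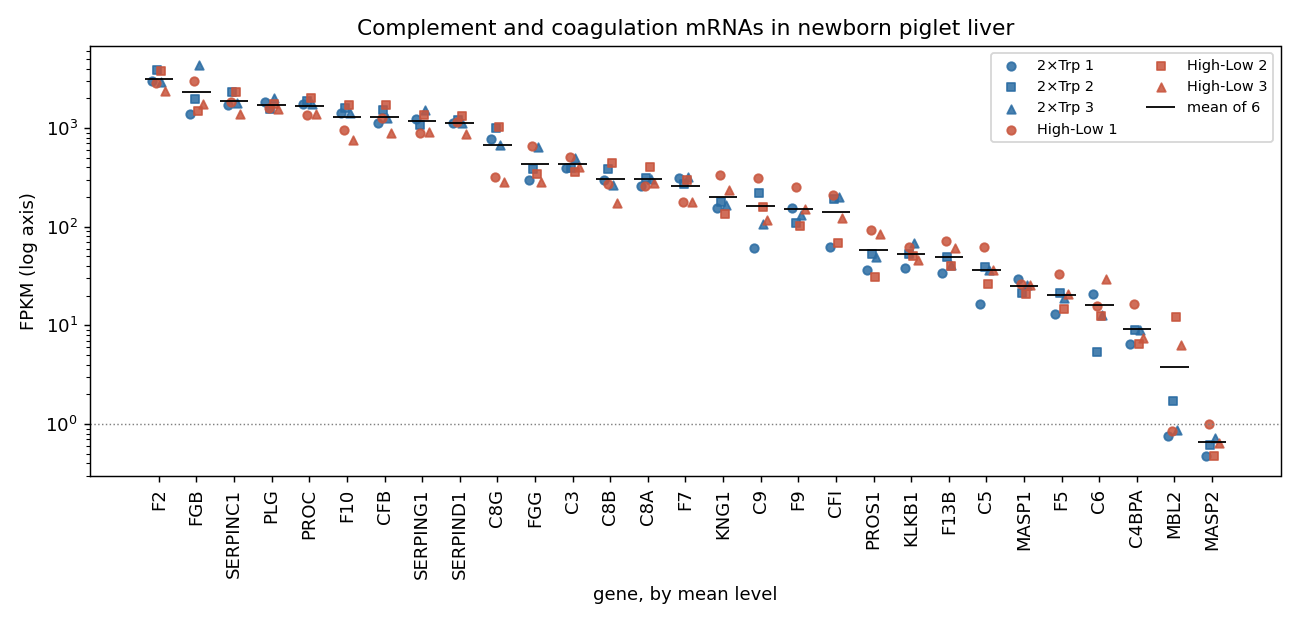
Level of each of the 29 complement and coagulation genes in FPKM on a log axis, ordered by mean level. Points are single libraries (blue 2×Trp, red High-Low), black lines are means of 6, and the dotted line is 1 FPKM. The genes run from 3145 FPKM for F2 to 0.654 for MASP2.

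The order was steady in its outline and loose between neighbours. Ranges over the 6 libraries overlapped for all 28 pairs of neighbours in the order, yet 318 of all 406 pairs of genes had separate ranges, and 353 kept 1 order in every library. F2 stood first in 4 libraries, and FGB stood first in 2×Trp 3 and High-Low 1. C8A and C8B, whose means were nearly equal, changed places between libraries. These levels rest on gene models whose completeness is not known. The tables list lengths of 190 to 2938 bases for the 29 genes (median 496), and C3, a very large protein, is listed at 213 bases. The labels do not say which length entered the FPKM. Over the 29 genes, listed length and mean level had a Spearman rho of 0.0015, a description across genes that share the same libraries.

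None of the 28 genes differed between the maternal diets at an adjusted p under 0.05 in limma, a linear model with moderated variance (adjusted p = 0.998 for each). At an unadjusted p under 0.05 there were 0 of 28, against 3.16% of all genes tested. Over all genes, 0.00917% passed the adjusted threshold. The 2 groups overlapped for each of the 28, against 7.18% of all genes with no overlap. Log2 fold changes, High-Low minus 2×Trp on log2(FPKM + 1), were positive for 12 and negative for 16, with a median of -0.06, beside 49.5% positive and a median of -0.0038 over all genes. In bulk tissue, fewer cells of a type and less RNA per cell cannot be told apart.

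**Figure D2:**
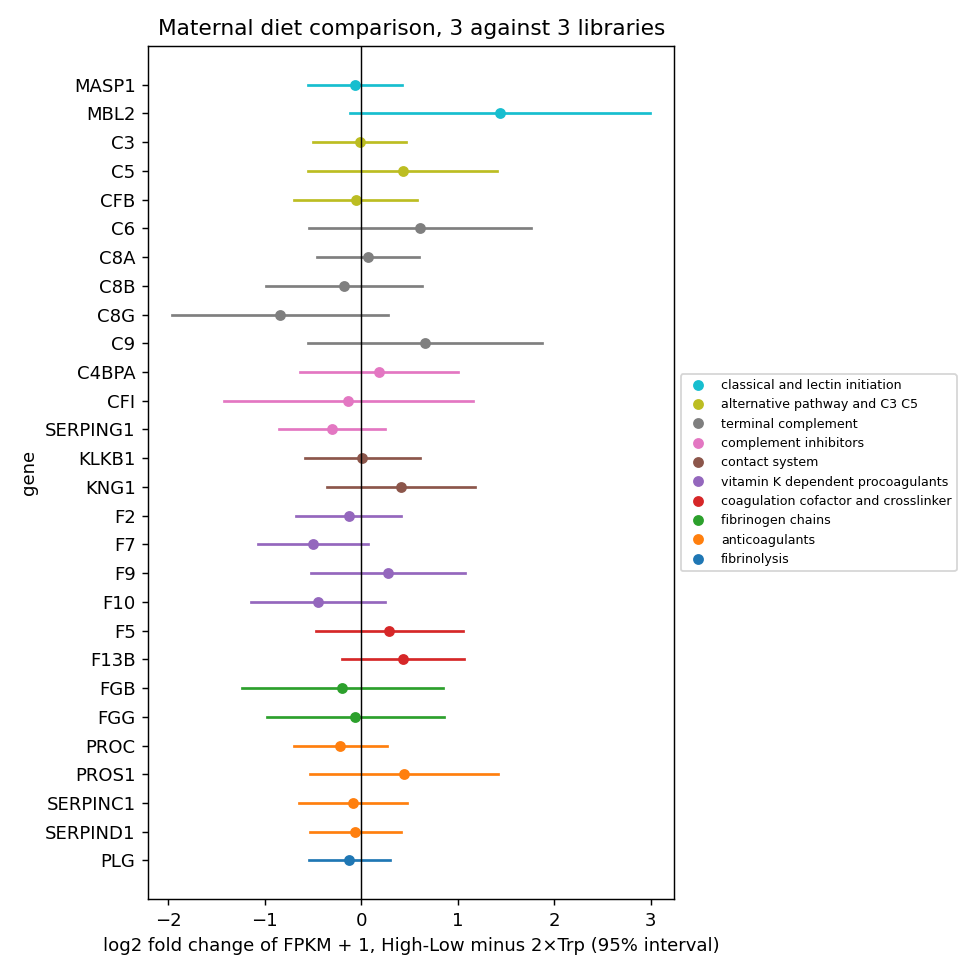
Log2 fold change of FPKM + 1 between diets (High-Low minus 2×Trp, 3 libraries each) for 28 genes, coloured by role, with 95% intervals from limma. Every interval spans 0; MBL2 lies highest at 1.44 and C8G lowest at -0.84.

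MBL2, the lectin that binds microbial sugars, had the largest log2 fold change of the set and also its lowest tested level. It stood at 0.758, 1.73 and 0.877 FPKM in 2×Trp 1 to 3, and at 0.843, 12.3 and 6.35 in High-Low 1 to 3. High-Low 2 and High-Low 3 lay above every other library, while High-Low 1 lay among the 2×Trp values. Its log2 fold change was 1.44 (95% interval -0.12 to 2.999, adjusted p = 0.998 in limma), 0.82 without High-Low 2 and 2.25 without High-Low 1. The gene passed the level filter through 2×Trp 2, High-Low 2 and High-Low 3, on chromosome 14 at 105631269 to 105636430. MASP1, a lectin arm protease, had 25.4 ± 4.30 FPKM in 2×Trp and 24.2 ± 3.15 in High-Low (SD, n = 3 each), and MASP2 0.601 ± 0.123 and 0.707 ± 0.273.

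At the centre of the cascade, C3 and factor B differed little in their means. C3, the protein whose cleavage all arms share, had 396, 396 and 493 FPKM in 2×Trp and 512, 360 and 404 in High-Low. Its log2 fold change was -0.02 (95% interval -0.50 to 0.46), so a change of the size of 2-fold lay outside the interval. Factor B, which forms the C3-cutting enzyme of the alternative arm, had 1304 ± 198 and 1292 ± 423 FPKM (SD, n = 3 each). C5 had 16.6, 38.7 and 36.4 FPKM in 2×Trp and 62.3, 26.0 and 36.4 in High-Low, lowest in 2×Trp 1 and highest in High-Low 1. Its log2 fold change of 0.43 was 0.054 without 2×Trp 1, 0.099 without High-Low 1 and 0.71 without High-Low 2.

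The pore genes went different ways. C8G, the small gamma chain of C8 encoded on chromosome 1 at 313757727 to 313759194, stood at 774, 1007 and 670 FPKM in 2×Trp 1 to 3 and at 316, 1015 and 283 in High-Low 1 to 3. High-Low 1 and High-Low 3 lay below every 2×Trp library, and High-Low 2 was the highest of all. The log2 fold change was -0.84 (SE 0.48, adjusted p = 0.998 in limma), -1.43 without High-Low 2 (adjusted p = 0.344 in limma), -0.58 without High-Low 1 and -0.51 without High-Low 3. C8A and C8B, the other chains of C8, had 293 ± 30.0 against 313 ± 81.5 FPKM and 316 ± 63.9 against 295 ± 133 (2×Trp against High-Low, SD, n = 3 each). C9, which polymerizes into the ring of the pore, stood at 61.0, 217 and 106 FPKM in 2×Trp and at 308, 158 and 116 in High-Low, an overlap of the groups. C6, which joins C5b before C7, stood at 20.9, 5.35 and 12.8 against 15.6, 12.6 and 29.4 FPKM, with its lowest value in 2×Trp 2. C9 overlaps DAB2 on the same strand, and the labels do not say how reads of such pairs were divided, so its value is uncertain. SERPIND1 overlaps PI4KA on the opposite strand, which had 3.88 to 6.15 FPKM.

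Complement inhibitors held their order in all libraries. SERPING1, which blocks C1 and also the contact proteases, had 1247, 1069 and 1532 FPKM in 2×Trp and 881, 1343 and 919 in High-Low, lowest in High-Low 1 and High-Low 3. Factor I had 62.1, 189 and 198 FPKM against 209, 68.5 and 123, with 2×Trp 1 and High-Low 2 far under the other libraries. The log2 fold change of factor I was -0.13, and 0.27 without High-Low 2. C4BPA had 6.41 to 9.02 FPKM in 2×Trp and 6.45 to 16.4 in High-Low; RefSeq lists 2 pig genes of that name, so its value is uncertain.

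Among the vitamin K dependent proteases that promote clotting, F7, F10 and, to a smaller extent, F2 lay lower in 2 of the 3 High-Low libraries. F7, which starts clotting with tissue factor, stood at 309, 272 and 319 FPKM in 2×Trp 1 to 3 and at 179, 296 and 178 in High-Low 1 to 3. F10 stood at 1421, 1591 and 1403 against 965, 1694 and 763 FPKM. In both genes High-Low 1 and High-Low 3 lay below every 2×Trp library, while High-Low 2 lay within or above them. The log2 fold changes were -0.50 for F7 (95% interval -1.07 to 0.07) and -0.45 for F10 (-1.14 to 0.25), and -0.74 and -0.77 without High-Low 2 (adjusted p = 0.344 in limma for both). Without High-Low 3 they were -0.38 and -0.20. The 2 genes are neighbours on chromosome 11, with 3132 bases between F10 (86197298 to 86213979) and F7 (86217112 to 86223394) and no other feature there.

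Prothrombin also had High-Low 1 and High-Low 3 below every 2×Trp library, with a smaller change, and F9 did not. Protein C and SERPING1 had the same order of libraries as prothrombin in this respect. F2 stood at 3009, 3887 and 2917 FPKM in 2×Trp and at 2843, 3818 and 2393 in High-Low, with a log2 fold change of -0.13 (95% interval -0.67 to 0.41). F9, the X-linked factor missing in haemophilia B, stood at 156, 109 and 130.2 FPKM against 254, 102 and 151, and its highest value was in High-Low 1. Its log2 fold change was 0.27, and -0.07 without High-Low 1.

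Cofactor, contact and fibrinogen genes had overlapping groups as well. F5, the cofactor of F10, had 13.1 to 21.3 FPKM in 2×Trp and 14.6 to 32.8 in High-Low, and F13B, the carrier subunit of the fibrin-linking enzyme, 33.8 to 49.7 and 39.7 to 71.4. KNG1, the source of bradykinin, had 156, 176 and 167 FPKM in 2×Trp and 337, 134 and 238 in High-Low. Prekallikrein had 53.2 ± 14.8 and 52.7 ± 8.61 (SD, n = 3 each). FGB stood at 1396, 1946 and 4301 FPKM in 2×Trp and at 2962, 1494 and 1754 in High-Low, and FGG at 295, 384 and 638 against 656, 338 and 287. Both chains were highest in 2×Trp 3 and High-Low 1. The log2 fold changes were -0.20 for FGB and -0.06 for FGG, and 0.26 and 0.25 without 2×Trp 3. FGG (78850721 to 78861385) and FGB (78952694 to 78961878) share a locus on chromosome 8.

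Of the brakes of clotting, 3 had coefficients of variation of 13.2% to 18.8% over the 6 libraries, and protein S had 43.6%. Antithrombin had 1936 ± 318 FPKM in 2×Trp and 1849 ± 459 in High-Low, heparin cofactor II 1151 ± 45.6 and 1120.5 ± 231 and protein C 1796 ± 76.8 and 1574 ± 376 (SD, n = 3 each). Plasminogen stood at 1823, 1541 and 2026 FPKM against 1603, 1769 and 1550.4, with the smallest coefficient of variation of the 28 (11.1%). The 95% interval of its log2 fold change (-0.12) ran from -0.54 to 0.29, the narrowest of the 28. Protein S, the cofactor of activated protein C, stood at 36.6, 53.4 and 48.8 FPKM in 2×Trp and at 92.5, 31.2 and 84.7 in High-Low. High-Low 1 and High-Low 3 lay above every 2×Trp library and High-Low 2 below them all, a log2 fold change of 0.45. It was 0.94 without High-Low 2 (adjusted p = 0.344 in limma), 0.29 without 2×Trp 1, 0.17 without High-Low 1 and 0.23 without High-Low 3. Protein S and F13B lie on unplaced scaffolds of the assembly.

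Spread over the 6 libraries was wide. The highest library was more than 2-fold above the lowest for 16 of the 28 genes and more than 3-fold for 7. The median coefficient of variation was 28.5% for the 26 genes with a mean of 10 FPKM or more, beside 21.5% for all 4486 tested genes at that level. MBL2 had the largest (123%), followed by C9 (55.4%), C6 (51.1%), FGB (48.7%) and C8G (47.5%). Summed over the 29 genes, the level was 17581, 20641 and 21664 FPKM in 2×Trp and 18543, 21025 and 14452 in High-Low. That was 1.51% to 2.01% of each library's FPKM total, highest in 2×Trp 3 and lowest in High-Low 3.

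High-Low 1 and High-Low 2, of mothers on the same diet, took most of the highest values. High-Low 1 was the highest library for 11 of the 28 and High-Low 2 for 9, while 2×Trp 1 and High-Low 3 were each the lowest for 9. On the log2 scale 15 genes were higher in High-Low 1 than in High-Low 2, led by CFI (1.60), PROS1 (1.54), KNG1 (1.32), F9 (1.31), C5 (1.23), C4BPA (1.23) and F5 (1.11). The 13 on the other side were led by MBL2 (-2.85), C8G (-1.68), F10 (-0.81), F7 (-0.72) and C8B (-0.69), and included F2, CFB, PROC, SERPINC1, SERPIND1, SERPING1, C8A and PLG. Relative to the mean of 6 libraries, the first set had a median of 0.72 in High-Low 1, -0.35 in High-Low 2 and 0.06 in High-Low 3. The second had -0.22, 0.31 and -0.37. Complement and clotting genes stood in both sets, so the split did not follow the cascades. These sets were drawn after their values were seen and carry no test.

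**Figure D3:**
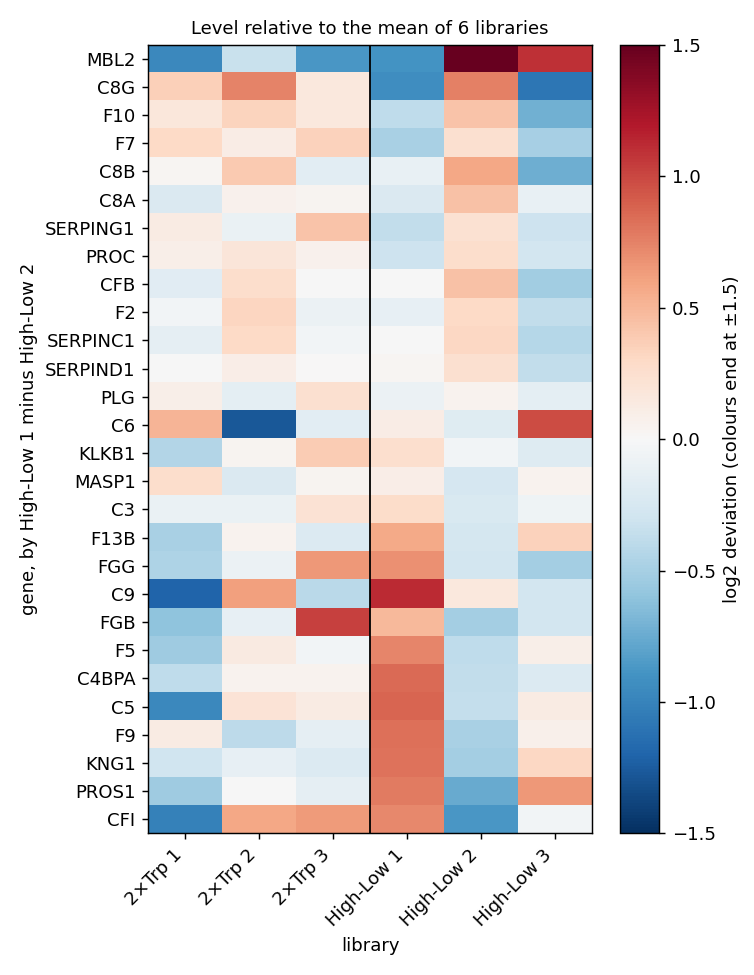
Deviation of each of 28 genes from its own mean of 6 libraries on log2(FPKM + 1), by library (columns, the line parts the diets), with genes ordered by High-Low 1 minus High-Low 2. Lower rows are high in High-Low 1 and low in High-Low 2, and upper rows the reverse; MBL2 in High-Low 2 (1.95) lies past the end of the colours at 1.5.

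Genes of the first set cover longer stretches of the genome. Their median length from first to last base was 29448 bases, and that of the second set 12043. Over all genes tested, the 5163 higher in High-Low 1 had a median of 21201 bases and the 5735 lower had 10215. Spearman's rho between length on the genome and the difference between the libraries was 0.49 over the 28 genes and 0.27 over the 10901, given as a description of genes that share both libraries. Lengths of the spliced transcripts and their base composition were not used here. FGB and FGG went against this, with short genes of 9185 and 10665 bases that were higher in High-Low 1, and C8A and PLG, at 48951 and 47602 bases, were lower there. The sets differed in level as well. Of the 9 genes at a mean of 1000 FPKM or more, all but FGB were in the second set. Length and level were not separated here.

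**Figure D4:**
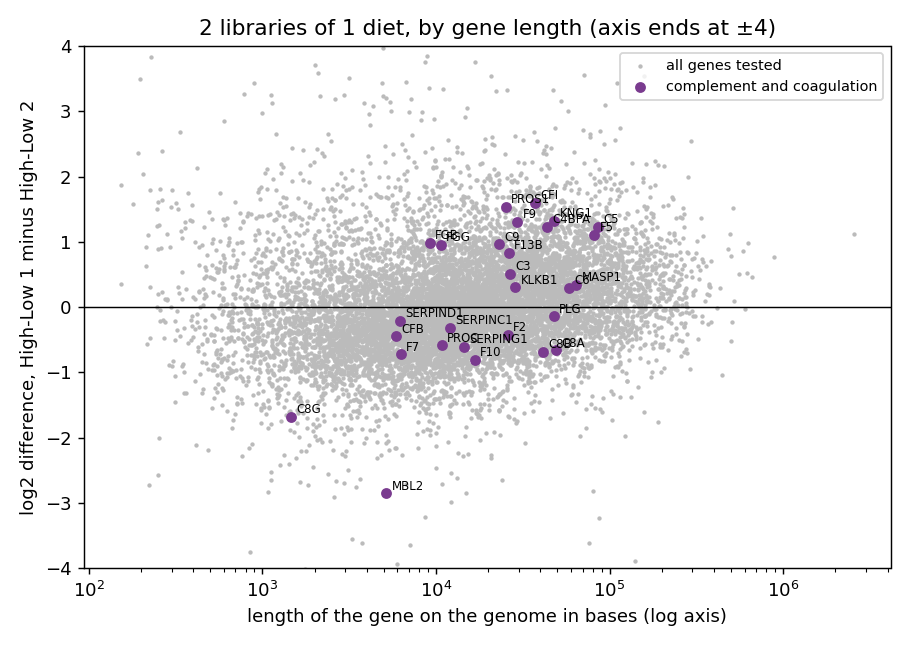
Log2 difference between High-Low 1 and High-Low 2 against the length of the gene on the genome in bases (log axis), for all genes tested (grey) and the 28 complement and coagulation genes (purple). The purple points run from MBL2 at -2.85 to CFI at 1.60; 30 grey genes lie beyond the vertical axis.

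Without High-Low 2, 8 of the 28 genes had an unadjusted p under 0.05 in limma, 3 higher and 5 lower in High-Low, and 0 passed after adjustment (smallest adjusted p = 0.344). All genes tested reached that p at a share of 13% in the same fit. The 8 were C8G, F7, PROS1, F10, KNG1, F13B, PROC and SERPING1, named after their values were seen. Groups did not overlap for 9 of the 28 then, beside 34.3% of all genes tested. With array quality weights, which give libraries unequal weight by their spread, 11 of the 28 had an unadjusted p under 0.05, beside 16.4% of all genes, and 0 passed after adjustment.

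Ratios within a library were compared for 13 pairs of genes chosen by role. F2 over SERPINC1, thrombin's precursor over its main inhibitor, was the steadiest, at 1.54 to 1.77 in the 6 libraries. F10 over F7 ran from 4.29 to 5.85, and FGB over FGG from 4.42 to 6.74, although FGB itself ran from 1396 to 4301 FPKM. Other partners parted. PROC over PROS1 was 48.4, 35.2 and 35.6 in 2×Trp and 14.5, 64.4 and 16.2 in High-Low, F10 over F9 ran from 3.79 to 16.6, and C9 over C6 from 2.93 to 40.5. C8G over C8B was 2.59, 2.60 and 2.55 in 2×Trp and 1.16, 2.31 and 1.61 in High-Low, the 1 ratio of 13 in which the groups did not overlap. Its exact permutation p was 0.1 (two-sided, the smallest that 3 against 3 allows), or 0.8125 adjusted over the 13 ratios.

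**Figure D5:**
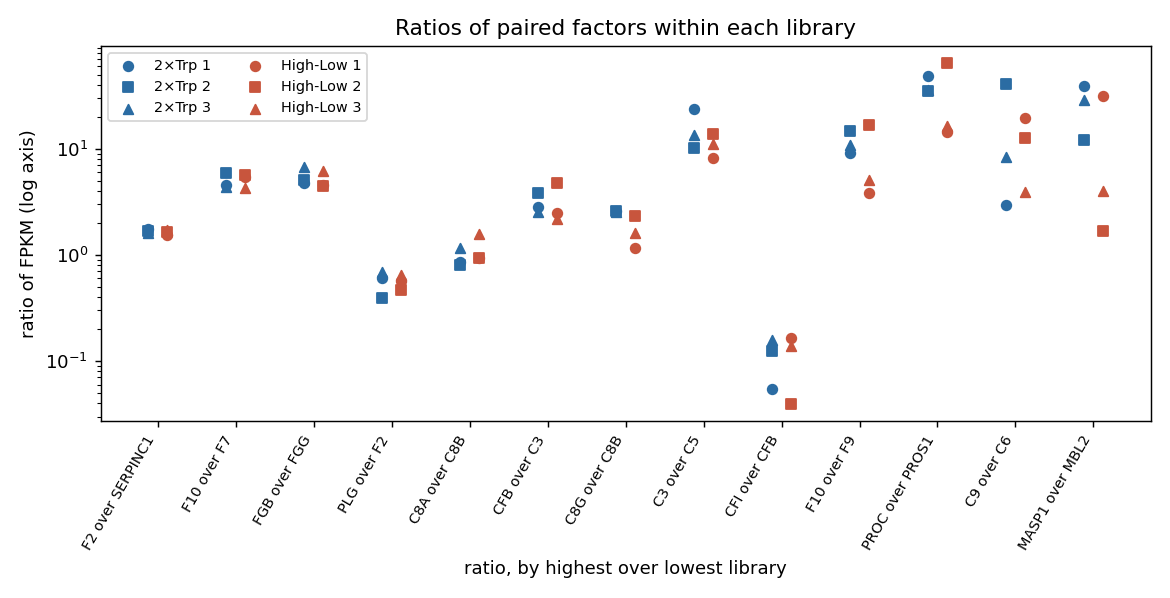
Ratio of FPKM of 2 genes in each library on a log axis, for 13 pairs ordered by how far the highest library lies over the lowest (blue 2×Trp, red High-Low). F2 over SERPINC1 stays between 1.54 and 1.77, and MASP1 over MBL2 spans 1.67 to 39.2.

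Other genes of the same systems were taken from lists of 83 symbols, of which 47 were tested. In limma 0 passed the adjusted threshold, and 4 had an unadjusted p under 0.05, beside 3.16% of all genes tested. Their log2 fold changes were positive for 20 and negative for 27, with a median of -0.05, beside 49.5% positive over all genes. Vitronectin (VTN), which keeps the pore complex off host membranes, had the smallest p of the 47. Its gene model covers 104474 bases of the genome with a listed length of 357. Overlaps of that stretch with other genes were not checked, so its value is uncertain. VTN stood at 3558, 3360.2 and 3924 FPKM in 2×Trp and at 2544, 1647 and 2406 in High-Low. Every High-Low library lay below every 2×Trp library, with a log2 fold change of -0.74 (95% interval -1.24 to -0.23, unadjusted p = 0.0102 and adjusted p = 0.998 in limma). Over the alternatives its adjusted p ran from 0.238 to 1.

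Of 10 other complement components 8 were negative, and the median log2 fold change was -0.21. C1QA, a chain of C1q made by macrophages, had 335, 469 and 450.3 FPKM in 2×Trp and 190.2, 363 and 247 in High-Low, a log2 fold change of -0.68 (adjusted p = 0.998 in limma). Macrophage markers, C1QA among them, were negative in 6 of 7, and their summed level was 1476 to 2021 FPKM in 2×Trp and 1094 to 1675 in High-Low; their part in these values was not tested. Ficolin FCN2, a sugar sensor of the lectin arm, averaged 199 FPKM and the lectin COLEC11 87.9, both far above MBL2. The alternative arm protease factor D (CFD) averaged 142 and its stabilizer properdin (CFP) 30.5. Among 3 other regulators, clusterin (CLU) averaged 1571 FPKM and C4BPB, the beta chain of the C4b binder, 80.0.

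Further clotting, fibrinolysis and vitamin K genes also failed to pass. PROCR, the endothelial receptor of protein C, had 6.05 ± 2.78 FPKM in 2×Trp and 2.67 ± 0.849 in High-Low (SD, n = 3 each; log2 fold change -0.87, adjusted p = 0.998 in limma). Endothelial markers were negative in 11 of 11, with summed levels of 181 to 222 FPKM against 112 to 205, and their part was not tested. Tissue factor (F3), the trigger of clotting, had 0.532 to 0.951 FPKM in 2×Trp and 1.06 to 2.40 in High-Low. It passed the level filter through the High-Low libraries alone, so its groups had to differ, and no fold change is given. SERPINA5, an inhibitor of activated protein C, averaged 1708 FPKM, histidine-rich glycoprotein (HRG) 1059 and CPB2, which protects fibrin from plasmin, 604. The plasminogen activators PLAT and PLAU averaged 0.871 and 0.818 FPKM and were below the filter. GGCX, the carboxylase that activates the vitamin K dependent factors, averaged 22.1 FPKM and ran from 18.3 to 27.3.

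Among 11 tested liver transcription factors, 7 were positive, with a median log2 fold change of 0.18. ONECUT1, also called HNF6, had 0.642, 1.46 and 1.56 FPKM in 2×Trp and 5.28, 2.01 and 2.46 in High-Low (log2 fold change 0.89, unadjusted p = 0.0318, adjusted p = 0.998 in limma), and 0.57 without High-Low 1. Its 2×Trp and High-Low values did not overlap. CEBPA averaged 84.9 FPKM, FOXA2 70.8, FOXA3 63.9 and HNF4A 61.5.

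The labelled tissue was checked against markers. Of 11 hepatocyte markers in the tables, 9 had means of 211 FPKM (TAT) to 54150 (APOC3). APOB had 22.6 FPKM in High-Low 1 and 1.37 to 3.82 in the other libraries, and AHSG is listed at 0 in every library. The mean log2 deviation of the 10 that were tested was 0.26, 0.19 and -0.35 in High-Low 1 to 3. It was -0.13, 0.29 and -0.25 in 2×Trp 1 to 3. APOB has the same weight in this mean as each other marker and raises it in High-Low 1. The summed level of the 11 was instead highest in High-Low 2. It was 102845, 141737 and 79045 FPKM in High-Low 1 to 3 and 104866, 126115 and 100940 in 2×Trp 1 to 3. Neutrophil markers summed to 125 FPKM in High-Low 2 and to 30.5 to 42.7 in the other libraries, and erythroid markers to 1817 in High-Low 1 and 4410 to 15893 elsewhere. Neutrophil markers thus stood apart in High-Low 2 and erythroid markers in High-Low 1, the 2 libraries that also stood apart in the complement and clotting genes. Endothelial, macrophage, stellate and lymphocyte markers had their lowest mean log2 deviation in High-Low 1 as well (-0.42, -0.36, -0.43 and -0.50). The mean deviation of the hepatocyte markers was similar in High-Low 1 and High-Low 2. The part of these lists was not tested. Platelet markers, of which GP1BB is listed at 0, summed to 0.691 to 2.43 FPKM.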

How the data were processed

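Newborn liver RNA was made into 6 libraries with an Illumina TruSeq kit, per the labels' protocols. HTSeq 0.6.1, TopHat2 2.0.12, Bowtie2 2.2.3 and susScr3 are named in the submitters' processing notes. How the values were made, with which annotation and with or without strand, is not stated there. The authors deposited 1 value per gene and library, read here as FPKM because values are not whole and totals differ (956426 to 1230288). Low values gave no whole reads with the listed length, so depth is unknown and counting intervals are left out. The count models planned were not used for that reason. Ensembl names matched 11804 of 25322 identifiers.

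Genes with 1 FPKM or more in 3 libraries were compared on log2(FPKM + 1), which understates changes of low genes, in limma 3.58.1 (R 4.3.3; trended, robust variance; Benjamini-Hochberg over 10901 genes; threshold 0.05). Ratios were compared by exact permutation. Members and lists were chosen with earlier results of these data known. Named genes are all members and, of other lists, mainly those of smallest p or highest level; others illustrate a role and were chosen after their values were seen. In simulated data with 10901 genes and normal noise, 200 genes of higher level were changed at once. There limma found 29.5% of genes with a true log2 change of 1 and 92.1% at 2. These shares need not hold for genes of low level such as MBL2, for genes of wide spread, or where fewer genes change. Alternatives were a pseudocount of 0.1, other filters, scalings, variance settings, weights, a replicate block and each library left out. Figures used matplotlib 3.10.9.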

Additional observations from a re-analysis of the deposited data

How the results depend on the processing

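Among the 28 complement and coagulation genes, 0 passed the adjusted threshold in limma under any of 15 alternatives. Genes with an unadjusted p under 0.05 in limma numbered 0 as reported and 11 with array quality weights (16.4% of all genes tested). They numbered 8 without High-Low 2 (13% of all genes tested), 1 without 2×Trp 2 (3.47%) and 1 without High-Low 1 (2.28%). There were 0 when any other single library was left out. Replicate numbers did not pair the samples (correlations of same-numbered deviations -0.22, -0.01 and 0.03), and a replicate block gave 2 such genes (2.79% of all genes tested). The median log2 fold change was -0.22 with array weights and -0.11 to 0.13 without single libraries. It turned positive without 2×Trp 2 (0.040), 2×Trp 3 (0.13), High-Low 2 (0.042) or High-Low 3 (0.13) and with scaling to totals without mitochondrial genes (0.0053). Of all genes, 1 was higher (1 to 2 without single libraries) and 0 lower, or 1 lower with scaling to FPKM totals, to totals without mitochondrial genes, by quantiles, or with array weights. Neighbours in the order of abundance with separate ranges numbered 0, 1 under each of the 3 scalings and 0 to 2 without single libraries, and no gene moved more than 1 place. No scaling moved the median of all genes by over 0.1.

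Of the 28 genes, 14 kept the sign of their fold change in every alternative that could be run. Signs turned with array weights for MASP1 (0.025), C8A (-0.087), C4BPA (-0.023) and KLKB1 (-0.22). They turned with scaling without mitochondrial genes for C3 (0.047), CFB (0.0071), FGG (0.0031) and SERPIND1 (0.0036), and by quantiles for C3 (0.065) and FGG (0.0100). Without single libraries the log2 fold change ran from -0.19 to 0.051 for MASP1, -0.16 to 0.10 for C3, -0.29 to 0.19 for CFB, -0.13 to 0.20 for C8A, -0.51 to 0.15 for C8B, -0.20 to 0.42 for C4BPA, -0.67 to 0.27 for CFI, -0.20 to 0.21 for KLKB1, -0.31 to 0.023 for F2, -0.068 to 0.59 for F9, -0.55 to 0.26 for FGB, -0.42 to 0.25 for FGG, -0.26 to 0.11 for SERPINC1 and -0.20 to 0.11 for SERPIND1. Of those that kept their sign it ran from -0.77 to -0.20 for F10, -1.43 to -0.51 for C8G and 0.17 to 0.94 for PROS1. The cause was not tested. MBL2 had no value under a filter at a mean of 5 FPKM. Count models were not run, because the values are not counts.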

Other observations

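A2M, a broad protease inhibitor of plasma that was not among the 28 genes, varied widely between libraries. It stood at 2579, 1198 and 8463 FPKM in 2×Trp and at 1139, 13894 and 3790.3 in High-Low. High-Low 2 and 2×Trp 3 were highest. STAT3, which carries the interleukin 6 signal of the acute phase, stood at 26.9, 14.9 and 45.9 FPKM in 2×Trp and at 45.2, 11.3 and 27.3 in High-Low. Its highest libraries, 2×Trp 3 and High-Low 1, were also those of FGB and FGG, and a link was not tested. JAK1 stood at 9.83, 3.58 and 5.97 against 21.1, 3.78 and 13.9 FPKM. LMAN1, the cargo receptor that carries F5 and F8 out of the endoplasmic reticulum, stood at 3.54, 7.12 and 6.10 against 19.7, 2.42 and 12.2 FPKM. LMAN1 and F5 were highest in High-Low 1, but F8 was highest in 2×Trp 2 (27.2 FPKM, and 24.4 in High-Low 1). A link between them was not tested. A2M, STAT3, JAK1 and LMAN1 were chosen after their values were seen, and none passed the threshold between diets in limma (adjusted p = 0.998 each, none of the 4 with an unadjusted p under 0.05).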
